A study of Mus musculus with 4 samples.

Results

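Gamma-delta T cells were picked out of droplet single-cell RNA libraries of mouse lung, 2 of Galt gene-edited mice (GAL) and 2 of wild-type (WT) mice. Members were chosen by the UMI counts of 9 genes in each cell. A cell counted as gamma-delta when at least 2 of the CD3 genes Cd3e, Cd3d and Cd3g and the delta chain constant gene Trdc each had a unique molecular identifier (UMI, a counted RNA molecule), and when it had 0 UMIs of Cd4, Cd8a, Cd8b1, Ncr1 and Cd79a. The rule found 53 and 37 cells in GAL replicates 1 and 2, and 58 and 61 cells in WT replicates 1 and 2. These 209 cells were taken from 53463 cells with at least 300 genes and at most 20% mitochondrial UMIs. Both groups were dissociated whole lungs, digested with Collagenase IV and DNase I, and no treatment is named beyond the edit. The kind of edit, the strain, the age and the sex are not given in the sources used here, nor is it stated whether 2 libraries of a group came from 2 animals, so p-values below cover only the spread among these 4 libraries.

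Gamma-delta T cells carry an antigen receptor of a gamma and a delta chain in place of the alpha and beta chains of CD4 and CD8 T cells. In mice most of them are set for a response type already in the thymus. Some make interleukin 17 and respond to interleukins 1 and 23, and others make interferon gamma under T-bet (Tbx21) and carry receptors shared with natural killer (NK) cells. In the lung, interleukin 17 from such cells helps to draw neutrophils to infected airways.

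The libraries held 12275 and 12045 barcodes in GAL and 14213 and 15583 in WT, with total counts between 56218178 and 62406681 UMIs. Gamma-delta cells had median depths of 3145 and 2861 UMIs in GAL, against 2215 and 2714 in WT, and between 127486 and 232740 UMIs per library in all. No barcode of a gamma-delta cell was also that of a gamma-delta cell in another library, while pairs of libraries shared between 104 and 146 of all kept barcodes. Whether barcodes of members recurred among other cells of another library was not tested. Galt, the galactose-1-phosphate uridylyltransferase of the Leloir pathway, had 836 and 605 UMIs over all kept GAL cells, against 701 and 669 over all kept WT cells, which is 13.4 and 10.8 CPM (counts scaled to equal library totals) in GAL, against 11.5 and 11.5 CPM in WT. The GAL values lay on both sides of the WT values, and as the kind of edit is not given, Galt RNA is no check of the labels. In gamma-delta cells Galt had 2 and 1 UMIs in GAL, against 4 and 5 in WT, too few to pass the filter on low counts. The difference between the GAL effects on Galt in gamma-delta and in CD4 T cells was -1.46 ± 1.17 on the log2 scale (SE; adjusted p = 1.0 in edgeR's quasi-likelihood test with Benjamini-Hochberg adjustment), which this depth could not resolve.

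Receptor genes outside the rule bear on the label. The gamma chain constant gene Tcrg-C1 was found in 92 of 209 gamma-delta cells (44.0%, exact 95% interval 37.2 to 51.0%), against 2.38% of CD4 T cells, 1.06% of CD8 T cells and 0.04% of B cells, whose median depths were 1749 to 2377 UMIs, against 2215 to 3145 in gamma-delta cells. At least 1 of the gamma constant genes was found in 131 cells (62.7%). Trdv4, a delta chain variable segment, was found in 53 cells (25.4%, interval 19.6 to 31.8%), against 0 of 1723 CD4 T cells, 0 of 1514 CD8 T cells, 5.04% of NK cells and 0 of 5347 B cells. CD4 and CD8 T cells were picked with 0 UMIs of Trdc, a part of the same chain, while NK and B cells were not. The absence of Trdv4 from CD4 and CD8 T cells can thus come in part from that choice. The alpha chain constant gene Trac was found in 17.7% of gamma-delta cells, against 68.1% of CD4 and 54.4% of CD8 T cells. The beta chain constant gene Trbc2 was found in 71.8% of gamma-delta cells, against 80.7% of CD4 T cells, 86.2% of CD8 T cells and 1.6% of B cells, so the label rests on gamma and delta chain RNA and on low Trac, not on a lack of beta chain RNA. Intervals here and below cover counting error only.

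Cells near the edge of the rule were as follows. Of the members, 94 had exactly 1 Trdc UMI, and 30.9% of these had Tcrg-C1 and 18.1% had Trac, while 74 had 3 or more, of which 56.8% had Tcrg-C1 and 20.3% had Trac. Just outside lay 57 cells with 1 CD3 gene only, of which 35.1% had Tcrg-C1, and 22 cells with exactly 1 UMI of the excluded genes, of which 45.5% had Tcrg-C1 and 36.4% had Trac. Of 3723 cells that failed only for having 0 Trdc UMIs, 6.42% had Tcrg-C1 and 59.3% had Trac. Whether single members are alpha-beta cells with stray Trdc RNA was not tested.

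Gamma chain constant genes lie on chromosome 13 and the delta chain genes on chromosome 14, inside the alpha chain locus (GRCm38). Trdc lies at chr14:54142851-54148868 on the plus strand, and its end overlaps Trdv5 on the minus strand. Trdv4 lies at chr14:54074905-54075515 (plus), Tcrg-C1 at chr13:19214103-19217024 (plus), Tcrg-C2 at chr13:19304649-19307551 (minus) and Tcrg-C4 at chr13:19344558-19352756 (plus). Tcrg-C2 was found in 56 cells (26.8%) and Tcrg-C4 in 41 (19.6%). Tcrg-C3 was found in 0 of 209 cells, a count that would still allow 1.44% of cells with a UMI. At least 2 of the constant genes were found together in 50 cells (23.9%), and as these genes are near-identical copies in part, the split of reads between them is uncertain. Variable segments were sparse: any listed gamma segment was seen in 47 cells (22.5%), with Trgv2 in 21, Tcrg-V1 in 13, Tcrg-V6 in 9 and Tcrg-V4 in 4, and any delta segment in 59 (28.2%), of which Trdv4 made up 53. Trdv4 was found in 19 of 53 and 13 of 37 cells in GAL, against 10 of 58 and 11 of 61 in WT. Its summed level was 214 and 183 normalized CPM in the GAL libraries, against 132 and 129 in the WT libraries, on library sizes scaled by the trimmed mean of M values (TMM). The groups did not overlap, as was so for 30.4% of all genes tested, and the difference did not pass the test (log2 fold change 0.61 ± 0.36 (SE), adjusted p = 0.996, edgeR's quasi-likelihood test with Benjamini-Hochberg adjustment). Trdv4 went with other genes in the same cells: 42 of the 53 Trdv4 cells had Tcrg-C1 and 46 had Cd163l1, a scavenger receptor of interleukin 17-type gamma-delta cells, while 1 had Klrd1, an NK-type receptor.

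**Figure D1:**
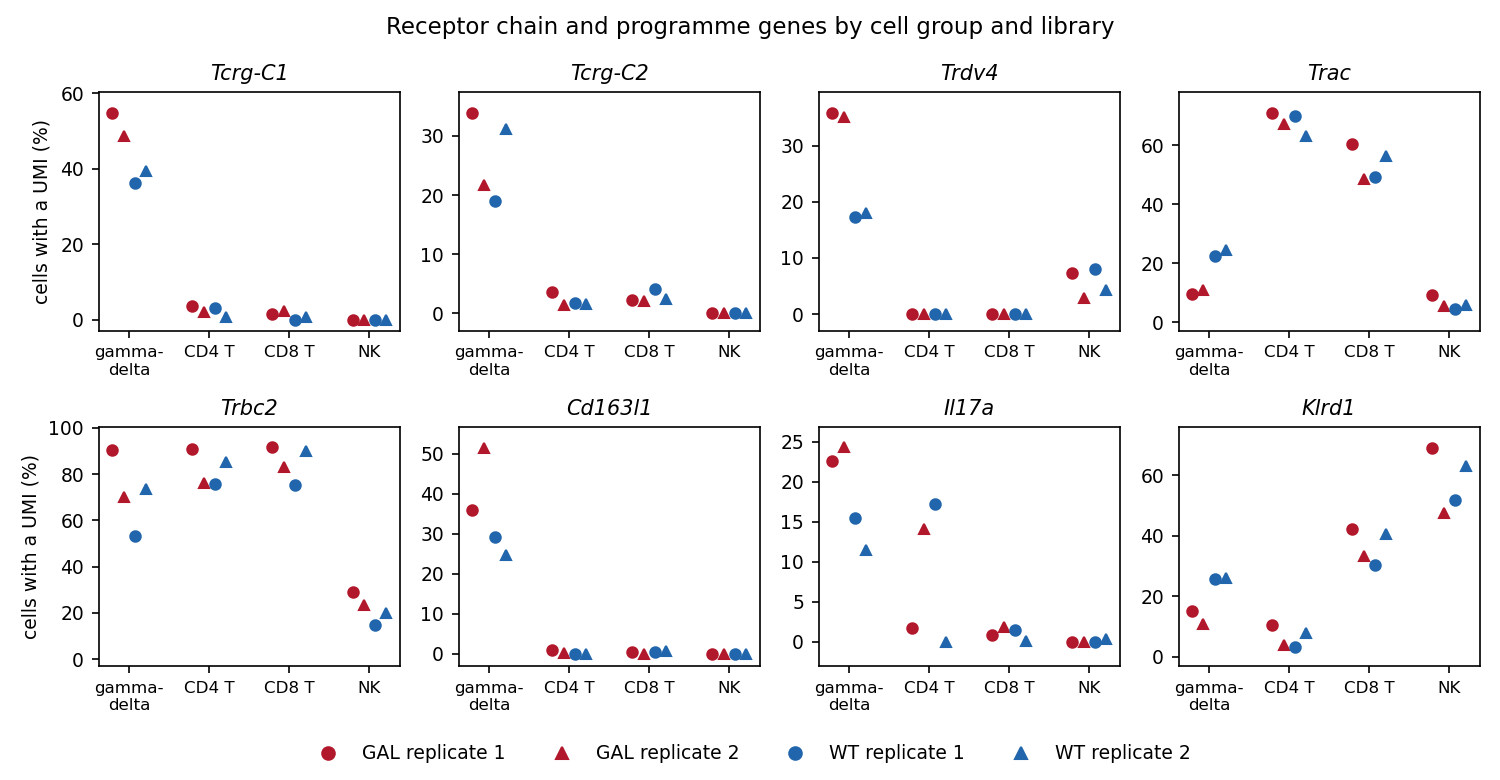
Share of cells with at least 1 UMI of each receptor or programme gene (percent), by library, in gamma-delta, CD4 T, CD8 T and NK cells; GAL libraries are red and WT libraries blue, with circles for replicate 1 and triangles for replicate 2. Tcrg-C1 was found in 44.0% of all gamma-delta cells and Trdv4 in 25.4%, against 2.38% and 0 of CD4 T cells, while Trbc2 was found in both. CD4 and CD8 T cells were picked with 0 UMIs of Trdc, a part of the same chain as Trdv4.

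Upstream DNA is shown for interleukin 17 pathway genes and for Nkg7, which are among the genes that separate the kinds of gamma-delta cell described below. Only stretches that hold marked letters are shown. Of the other genes of those sets, 5830411N06Rik held the letters TGACCT 238 bases before 1 of its starts. Ifng held them 16 bases after its start, and the remaining genes with an entry held none. Capitals mark the letters AGGTCA (or, on the opposite strand, TGACCT), a half-site bound by nuclear receptors such as ROR alpha (Rora). In Nkg7 they mark GGTGTGA, a half-site of T-box factors such as T-bet, which was also looked for on the opposite strand as TCACACC. Each stretch is the 250 bases before the gene's start on the gene's own strand, from RefSeq (GRCm38.p6). Il17a (interleukin 17A) is from chr1:20730655-20730904 (plus strand), Il17f (interleukin 17F) from chr1:20784271-20784520 (minus), Il23r (interleukin 23 receptor) from chr6:67491856-67492105 (minus) and Nkg7 (a cytotoxic granule protein) from chr7:43436888-43437137 (plus).
Il17a: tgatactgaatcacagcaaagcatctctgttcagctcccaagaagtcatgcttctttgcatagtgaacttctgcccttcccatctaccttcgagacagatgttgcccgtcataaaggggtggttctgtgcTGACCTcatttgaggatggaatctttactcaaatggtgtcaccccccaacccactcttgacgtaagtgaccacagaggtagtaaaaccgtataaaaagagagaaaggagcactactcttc
Il17f: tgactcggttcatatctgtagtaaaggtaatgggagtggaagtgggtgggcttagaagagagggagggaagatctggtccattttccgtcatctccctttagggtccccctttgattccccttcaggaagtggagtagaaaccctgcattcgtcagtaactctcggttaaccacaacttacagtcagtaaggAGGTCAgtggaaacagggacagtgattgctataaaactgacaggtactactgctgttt
Il23r: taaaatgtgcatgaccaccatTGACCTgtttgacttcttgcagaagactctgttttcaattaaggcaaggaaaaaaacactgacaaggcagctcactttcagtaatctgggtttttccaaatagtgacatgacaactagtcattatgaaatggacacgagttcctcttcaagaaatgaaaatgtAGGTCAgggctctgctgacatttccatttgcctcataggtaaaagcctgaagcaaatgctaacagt
Nkg7: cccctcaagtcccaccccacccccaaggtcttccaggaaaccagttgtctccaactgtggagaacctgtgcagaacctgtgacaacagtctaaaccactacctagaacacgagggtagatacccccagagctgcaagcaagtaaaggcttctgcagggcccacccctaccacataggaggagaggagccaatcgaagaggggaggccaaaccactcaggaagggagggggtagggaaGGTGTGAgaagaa
The AGGTCA letters, on either strand, begin 120 bases before the start of Il17a, 58 before that of Il17f, and 229 and 66 before that of Il23r, and the T-box letters 13 before that of Nkg7. Of the 9 type 17 genes used below, 7 had an entry, and 4 of these held AGGTCA in a window of 300 bases (250 before to 50 after the start) and 0 held GGTGTGA. Of the 9 type 1 genes, 6 had an entry, of which 1 held AGGTCA and 1 held GGTGTGA. Of all 27025 genes with such windows, 18.1% held AGGTCA and 4.6% held GGTGTGA in at least 1 window. Over all 32851 windows the shares were 16.3% and 3.98%, so letters of this kind are common, and a match is not a binding site.

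Against CD4 T cells of the same libraries, gamma-delta cells were higher in 5 gamma and delta chain genes, in 11 of 27 genes of the type 17 programme and in the NK-type receptor genes Klrk1 and Klrd1, and lower in Trac, in Cd28 and Ctla4 and in Ccr7 and S1pr1. Of 6690 genes tested, 191 (2.86%) were called at an adjusted p under 0.05, 112 (1.67%) higher and 79 (1.18%) lower, in edgeR's quasi-likelihood test with Benjamini-Hochberg adjustment and a term for the library. The CD4 T cells were 336 and 539 in GAL and 521 and 327 in WT, and values below are given in the order GAL replicate 1, GAL replicate 2, WT replicate 1, WT replicate 2. Tcrg-C1 had 390, 225, 188 and 277 normalized CPM in gamma-delta cells, against 9.94, 7.18, 8.97 and 3.74 in CD4 T cells (log2 fold change 5.06 ± 0.26 (SE), adjusted p = 6.22e-08). Trdv4 had 191, 161, 117 and 116 normalized CPM in gamma-delta cells and 0 UMIs in all CD4 T cells, so that its level was at least 335.5-fold higher against a floor of 3 UMIs over the CD4 sum. As the CD4 T cells were picked with 0 Trdc UMIs, part of this difference can come from the choice of cells. Tcrg-C2, Tcrg-C4 and the gamma variable segment Trgv2 were also higher, with log2 fold changes of 3.66, 3.09 and 4.0. Trac had 44.3, 80.5, 106 and 131 normalized CPM in gamma-delta cells, against 467, 391, 370.5 and 400.4 in CD4 T cells (log2 fold change -2.19 ± 0.24 (SE), adjusted p = 0.000209). All 4 gamma-delta values of Trac lay below all 4 CD4 values; 6.25% of all genes had no overlap between these cell types in either direction. Of the 3 alpha and beta chain constant genes tested, 2 were lower in gamma-delta than in CD4 T cells (median log2 fold change -0.53), against 1.18% of all genes. Cd3e, a rule gene given as description, differed by 0.17 on the log2 scale.

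Of the 27 tested genes of the type 17 programme, 11 were higher and 1 was lower in gamma-delta than in CD4 T cells, with a median log2 fold change of 1.22 (all genes, -0.01). Cd163l1 had 244, 362, 223 and 202 normalized CPM in gamma-delta cells, against 2.29, 0.479, 0 and 0 in CD4 T cells (log2 fold change 8.49 ± 0.41 (SE), adjusted p = 4.39e-08). Its levels in gamma-delta cells stood above every CD4 value. Blk, a Src family kinase of B cells and of these gamma-delta cells, was higher by 6.53 ± 0.46 (log2, SE), the interleukin 23 receptor gene Il23r by 3.25 ± 0.55, the interleukin 1 receptor gene Il1r1 by 2.61 ± 0.47 and Zbtb16 (PLZF, a factor of innate-like T cells) by 2.58 ± 0.41. Maf, also a factor of interleukin 17-type cells, was lower (log2 fold change -0.71). Il17a itself had 341, 201, 243 and 75.6 normalized CPM in gamma-delta cells, against 20.6, 226, 282 and 0 in CD4 T cells, a difference that did not pass the test (log2 fold change 1.41 ± 0.66 (SE), adjusted p = 0.387), and the 2 sets of values overlapped. Il17a was found in 17.7% of gamma-delta cells, against 9.98% of CD4 T cells and 0.92% of CD8 T cells. Median depths were 2215 to 3145 UMIs in gamma-delta cells, 2695 to 3488 in CD4 T cells and 2801 to 4112 in CD8 T cells.

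Of 17 tested type 1 and cytotoxic genes, 6 were higher in gamma-delta than in CD4 T cells and 0 lower (median log2 fold change 0.92). Klrk1 (NKG2D, an activating receptor) was higher by 2.33 ± 0.41, Klrd1 (CD94) by 1.92 ± 0.38 and the chemokine Ccl5 by 1.99 ± 0.47. Gzma (granzyme A) had 328, 8.05, 1992 and 398 normalized CPM in gamma-delta cells, against 135, 32.1, 33.6 and 101 in CD4 T cells and did not pass the test (adjusted p = 0.0778). Of 13 tested checkpoint and costimulation genes, 4 were lower and 0 higher, namely Cd28 (log2 fold change -1.64 ± 0.19), Tnfrsf4 or OX40 (-3.12 ± 0.38), Ctla4 (-1.83 ± 0.27) and Cd5 (-1.72 ± 0.25). Other T cell surface and signalling genes were lower too, among them Cd6 (-1.78), Lck (-1.01), Themis (-2.67), Ubash3a (-2.35), Tnfsf8 (-4.15) and Cd40lg (-1.92), while Cd7 was higher (2.53). Cxcl13, a chemokine of helper cells, had 0 UMIs in gamma-delta cells and 130.2 CPM over the CD4 sum, which is at least 33.0-fold lower. Of 13 tested genes of naive and circulating cells, 2 were lower: the lymph node homing receptor Ccr7 (-1.62 ± 0.19) and the egress receptor S1pr1 (-1.0 ± 0.23). Of 20 immediate early genes 7 were higher, with Jun at 1.06, and of 12 heat shock genes 4 were higher, with Hspa1a at 1.39 and Hspa1b at 2.19. The call count was 76 without the library term, 103 without GAL replicate 1, 121 without GAL replicate 2 and 113 without WT replicate 2, and 28 when members with a Trbc1 or Trbc2 UMI were left out, which left 2 cells in GAL replicate 1.

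Against CD8 T cells, gamma-delta cells were higher in 20 of 24 genes of the type 17 programme and lower in 7 of 15 genes of naive and circulating cells, while 3 of 23 type 1 genes passed the test. The comparisons with CD4, CD8 and NK cells share the same gamma-delta sums. Of 6300 genes, 417 (6.62%) were called, 221 (3.51%) higher and 196 (3.11%) lower in gamma-delta cells. The CD8 T cells were 351 and 327 in GAL and 274 and 562 in WT. None of the 24 tested type 17 genes was lower, and their median log2 fold change was 1.94. Il17a had 324, 192, 223 and 71.1 normalized CPM in gamma-delta cells, against 2.73, 9.14, 6.11 and 0.493 in CD8 T cells (log2 fold change 5.54 ± 0.36 (SE), adjusted p = 7.64e-07). Every gamma-delta library was above every CD8 library for Il17a; 10.6% of all genes had no overlap between these cell types. Cd163l1 was higher by 6.82 ± 0.37, Tcrg-C1 by 6.17 ± 0.37, Il23r by 4.28 ± 0.60, Il1r1 by 3.58 ± 0.41, Maf by 1.98 ± 0.20, Rora (ROR alpha) by 1.41 ± 0.18 and the tissue-homing receptor Cxcr6 by 2.00 ± 0.23. Trdv4 had 0 UMIs in CD8 T cells, which were also picked with 0 Trdc UMIs, and was at least 306.0-fold higher in gamma-delta cells. Of the 3 alpha and beta chain constant genes tested, 2 were lower than in CD8 T cells (median log2 fold change -0.70), against 3.11% of all genes.

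Of 23 tested type 1 and cytotoxic genes, 1 was higher and 2 were lower than in CD8 T cells (median log2 fold change 0.12). Il2rb, the beta chain of the interleukin 2 and 15 receptors, was higher (0.70 ± 0.16), and Gzmk (granzyme K, -3.22 ± 0.67) and Cd27 (-0.80 ± 0.19) were lower. Ccl5 had 1895, 1038, 7148 and 3790 normalized CPM in gamma-delta cells, against 4002, 3632, 2328 and 3941 in CD8 T cells, and it did not pass the test (log2 fold change -0.33 ± 0.39 (SE), adjusted p = 0.747). The Ccl5 values overlapped, with the GAL gamma-delta libraries at the low end. Of 15 tested naive and circulating genes, 7 were lower in gamma-delta cells (median -1.07), among them Ccr7 (-2.52 ± 0.21), Lef1 (-1.38 ± 0.23) and S1pr1 (-1.18 ± 0.21). Dapl1, a gene of naive CD8 T cells, had 1 UMI in gamma-delta cells and 642 in CD8 T cells, a CPM ratio of 0.0131 (interval 0.000332 to 0.0734). The growth factor gene Areg (amphiregulin, 1.89 ± 0.22) and the costimulatory receptor gene Icos (1.28 ± 0.13) were higher. Of 12 transcripts of mitochondrial DNA 7 were lower. Club cell RNA differed too: Scgb1a1 had 424, 38.5, 107 and 75.8 normalized CPM in gamma-delta cells, against 17660, 67.3, 35850 and 88.3 in CD8 T cells, and its part in other differences was not tested. The count of called genes was 241 without GAL replicate 1.

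Against NK cells, which lack CD3 by the rule, gamma-delta cells were higher in receptor, type 17 and T cell genes and lower in the cytotoxic programme. The NK cells were 97 and 107 in GAL and 87 and 324 in WT, and 454 of 3523 genes (12.9%) were called, 257 (7.29%) higher and 197 (5.59%) lower. Of 20 tested type 1 and cytotoxic genes 17 were lower and 1 was higher (median log2 fold change -1.74). Perforin (Prf1) had 15.2, 18.7, 86.4 and 40.0 normalized CPM in gamma-delta cells, against 781, 932, 754 and 765 in NK cells (log2 fold change -4.28 ± 0.30 (SE), adjusted p = 4.19e-07). Also lower were Gzma (log2 fold change -4.20 ± 0.51, SE), Nkg7 (-2.44 ± 0.27), Ccl5 (-2.21 ± 0.34), Klrd1 (-1.88 ± 0.24), Klrk1 (-1.37 ± 0.24) and the transcription factor gene Eomes (-2.15 ± 0.41). The NK receptor genes Klra8 and Klra4 had 1 and 3 UMIs in gamma-delta cells, with CPM ratios to NK cells of 0.0035 (interval 8.85e-05 to 0.0196) and 0.00971 (0.002 to 0.0285). The chymase gene Cma1 had 0 UMIs in gamma-delta cells and was at least 79.5-fold lower.

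Of 17 tested type 17 genes 14 were higher than in NK cells and 1 was lower (median log2 fold change 2.42). Icos was higher by 3.83 ± 0.20, the interleukin 7 receptor gene Il7r by 4.41 ± 0.29, Cxcr6 by 4.4 ± 0.31 and Rora by 2.42 ± 0.16. Tcrg-C1 and Cd163l1 had 0 UMIs in NK cells and were at least 164.5-fold and 145.5-fold higher. Il17a had 1 UMI in NK cells, a CPM ratio of 391.5 (interval 69.3 to 15560). Trdv4 was found in 5.04% of NK cells and was higher in gamma-delta cells by 2.96 ± 0.30. Of 10 tested naive and circulating genes 5 were higher, with Ccr7 at 3.14, S1pr1 at 2.05 and Lef1 at 1.79, and 1 was lower. Areg was higher by 3.36 ± 0.44. The surfactant gene Sftpc was also higher (4.19), and it stood mostly in single cells: 92.7% and 100% of its gamma-delta UMIs in the GAL libraries and 20% and 98.3% in the WT libraries came from the cell that held most of it. The count of called genes was 284 without GAL replicate 1 and 281 without WT replicate 2, and 281 in DESeq2.

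**Figure D2:**
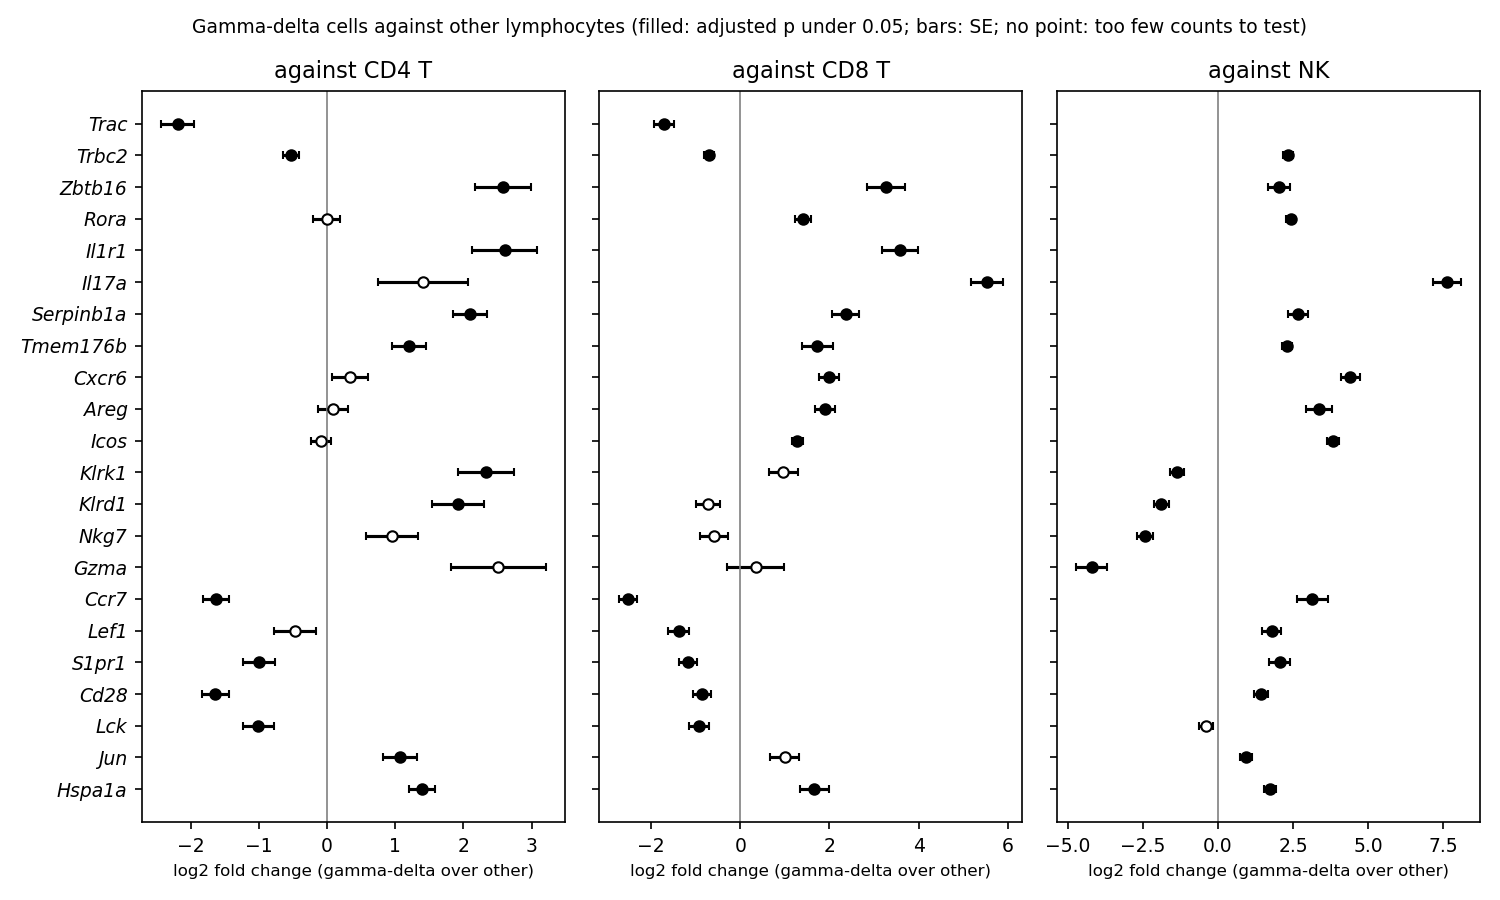
Log2 fold changes (points) with their standard errors (bars) of receptor and programme genes in gamma-delta cells against CD4 T, CD8 T and NK cells; filled points passed an adjusted p under 0.05. Il1r1 and Zbtb16 were higher than in CD4 and CD8 T cells, Il17a passed the test against CD8 but not CD4 T cells, and Nkg7, Klrd1 and Gzma were lower than in NK cells. Genes with no point in a panel had too few counts for the test.

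Gamma-delta cells were then divided by 2 sets of 9 genes. A cell was called type 17 with UMIs of at least 2 of 9 genes, among them Il17a, Il17f, Il23r, Il1r1, Blk, Cd163l1, 5830411N06Rik and Tmem176a, and fewer than 2 of the other set, and type 1 with at least 2 of Tbx21, Eomes, Ifng, Klrd1, Klrc1, Klrc2, Nkg7, Ccl5 and Il2rb and fewer than 2 of the first. Over all libraries 82 cells (39.2%) were type 17, 92 (44.0%) were type 1, 9 met both and 26 neither. The number that met both depends on the need for 2 genes. When 1 gene sufficed, on average 14.18% of GAL and 10.05% of WT gamma-delta cells were type 17 alone. Type 1 alone were 26.85% and 48.69%, and the rest held RNA of both sets or of neither. Of 37 cells with Il17a, 27 had Cd163l1 and 1 had Klrd1. Trdv4 was found in 48 of 82 type 17 cells (58.5%), in 1 of 92 type 1 cells (1.09%) and in 0 of the 26 that met neither. Tcrg-C1 was found in 72.0% of type 17 and 26.1% of type 1 cells, Tcrg-C2 in 22.0% and 31.5%, and Tcrg-C4 in 9.76% and 30.4%. The 26 cells of neither type had Ccr7 in 13 cells (50%), against 3.66% of type 17 and 17.4% of type 1 cells.

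Type 17 and type 1 cells were compared within the 3 libraries with at least 10 cells of each, which left out GAL replicate 2 (7 type 1 cells), in the order GAL replicate 1, WT replicate 1, WT replicate 2. Of 1435 genes 77 (5.37%) were called, 46 (3.21%) higher and 31 (2.16%) lower in type 17 cells, by edgeR's quasi-likelihood test with Benjamini-Hochberg adjustment and a library term. The split genes themselves were not tested. Tcrg-C1 had 968, 663 and 591 normalized CPM in type 17 cells, against 245, 117 and 202 in type 1 cells (log2 fold change 1.98 ± 0.28 (SE), adjusted p = 0.0206). Trdv4 had 578, 509.9 and 265 normalized CPM in type 17 cells, against 24.5, 0 and 0 in type 1 cells, with 2 UMIs over all type 1 cells and a CPM ratio of 58.5 (interval 15.6 to 492.5). For both genes the sets of values did not overlap, as was so for 25.1% of all genes. Of the 13 tested genes of the type 17 programme outside the split, 6 were higher and 0 lower (median log2 fold change 1.81, all genes -0.04). These were Rora (1.84 ± 0.22), Ramp1 (3.34 ± 0.44, a subunit of the receptor for the neuropeptide CGRP), Icos (1.81 ± 0.26), Il7r (1.75 ± 0.29), Serpinb1a (3.06 ± 0.55) and Cxcr6 (2.07 ± 0.40).

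Actn2, a muscle-type actinin, had 722, 408 and 407 normalized CPM in type 17 cells, against 24.5, 23.4 and 26.9 in type 1 cells (log2 fold change 4.25 ± 0.35 (SE), adjusted p = 0.00807). Its type 17 values were all above its type 1 values, and the hair keratin gene Krt83 (3.82 ± 0.59), the hypoxia-inducible lipid droplet gene Hilpda (2.89 ± 0.23), Smox (2.84 ± 0.42) and Areg (2.94 ± 0.54) were higher as well. Areg was found in 26.8% of type 17 and 2.17% of type 1 cells. Gzma had 14.4, 25.5 and 0 normalized CPM in type 17 cells, against 819, 4438 and 713 in type 1 cells, with 2 UMIs over type 17 cells and a CPM ratio of 0.00642 (interval 0.000775 to 0.0233). Cd28 had 0 UMIs in type 17 cells and was at least 13.5-fold lower, and Lck had 3 (ratio 0.0642, interval 0.0129 to 0.195). Also lower were the surface genes Cd7 (-3.24 ± 0.44) and Ms4a4b (-4.29 ± 0.43), Ly6c2 (-4.10 ± 0.70), and Ptprc (CD45, -1.33 ± 0.17). Of 8 tested cell division genes 4 were lower, with Stmn1 at -3.22 ± 0.31, Mki67 at 2 and Top2a at 1 UMI over type 17 cells. The macrophage genes Chil3 (3.47), Ccl6 (3.19) and Lyz2 (2.63) were higher too, and Chil3 stood largely in single cells, with 84.9% and 86.1% of its gamma-delta UMIs in the GAL libraries and 51.0% and 90.9% in the WT libraries in the cell that held most. Leaving out a library left 2, with 1 residual degree of freedom in the fit: 1 gene (Gzma) was then called without GAL replicate 1, 0 without WT replicate 1 and 179 without WT replicate 2, of which 74 were among the 77.

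**Figure D3:**
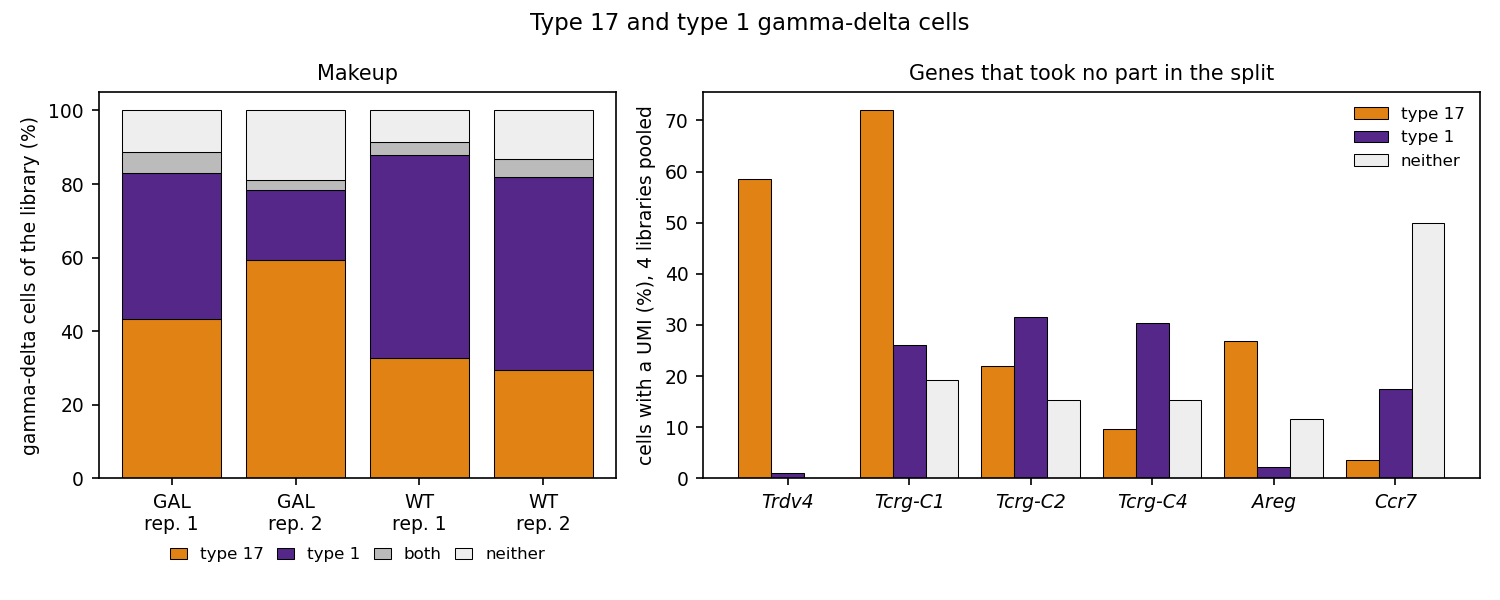
Share of gamma-delta cells (percent) called type 17, type 1, both or neither in each library, and share of type 17, type 1 and neither cells of all libraries with a UMI of 6 genes that took no part in the split. Type 17 cells made up 43.4% and 59.5% of the GAL libraries, against 32.8% and 29.5% of the WT libraries, and Trdv4 was found in 48 of 82 type 17 cells, against 1 of 92 type 1 cells.

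The share of gamma-delta cells among all kept cells was 0.436% (exact 95% interval 0.327 to 0.570%) and 0.311% (0.219 to 0.429%) in the GAL libraries, against 0.414% (0.315 to 0.535%) and 0.396% (0.303 to 0.508%) in the WT libraries. The means were 0.374 ± 0.0884% in GAL and 0.405 ± 0.0129% in WT (SD, n = 2 each), and the difference of -0.031 percentage points was smaller than the spread of the GAL libraries (exact permutation test, two-sided, p = 1.0, with 0.333 the smallest p that 2 against 2 libraries can give). Among cells with at least 2 CD3 genes, gamma-delta cells made up 3.33% and 2.03% in GAL, against 2.77% and 2.85% in WT, a difference of -0.133 percentage points (p = 1.0, same exact test). GAL replicate 1 lay above and GAL replicate 2 below both WT libraries by either measure, and the sign of the difference depended on GAL replicate 2: without it the differences were 0.0315 and 0.518 points.

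Within gamma-delta cells, type 17 cells made up 23 of 53 (43.4%) and 22 of 37 (59.5%) in GAL, against 19 of 58 (32.8%) and 18 of 61 (29.5%) in WT. The means were 51.4 ± 11.4% in GAL and 31.1 ± 2.30% in WT (SD, n = 2 each), a difference of 20.3 percentage points whose groups did not overlap (exact permutation test, two-sided, p = 0.333, the smallest possible). Type 1 cells made up 39.6% and 18.9% in GAL, against 55.2% and 52.5% in WT, a difference of -24.5 points (exact permutation test, p = 0.333). The type 17 difference was smaller when 1 gene sufficed for either type (4.13 points) and when cells with a UMI of Lyz2, Sftpc, S100a8, Pecam1 or Col1a1 were left out (6.67 points), an alternative chosen after seeing the data. Cells with a UMI of those genes of other cell types were 94.3% and 83.8% of gamma-delta cells in GAL, against 72.4% and 59.0% in WT, and their part in the difference was not tested. At a fixed 1000 UMIs per cell the type 17 difference was 15.2 points. Without GAL replicate 2 the type 17 difference was 12.3 points and the type 1 difference -14.2 points.

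**Figure D4:**
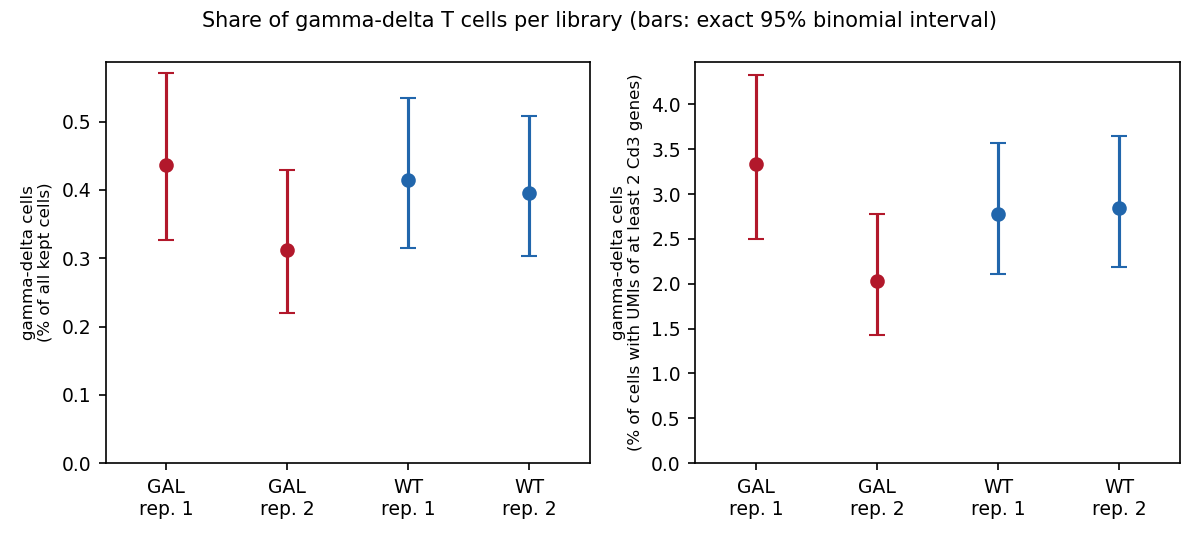
Gamma-delta cells as a share of all kept cells and of cells with at least 2 CD3 genes (percent), by library, with exact 95% intervals for counting error. The GAL libraries, at 0.436% and 0.311% of kept cells, lay on both sides of the WT libraries, at 0.414% and 0.396%.

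The levels of 3162 genes in the summed gamma-delta cells were compared between GAL and WT, and 0 (0%) were called in edgeR's quasi-likelihood test with Benjamini-Hochberg adjustment; 123 had an unadjusted p under 0.05, 62 higher and 61 lower in GAL. DESeq2 called 1 gene, Ccl5, and the edgeR fit called 36 without GAL replicate 2, 21 without WT replicate 1 and 37 without WT replicate 2, each with a lone sample assumed to vary like the other group. In these sums a lower level can be fewer cells of a type or less RNA per cell, which cannot be told apart. The genes below are given as values. Ccl5 had 2244 and 1235 normalized CPM in the GAL libraries, against 8823 and 4492 in the WT libraries (log2 fold change -1.93 ± 0.34 (SE), adjusted p = 0.245, the smallest of all genes). Both GAL values were below both WT values. Of 17 tested type 1 and cytotoxic genes 5 had positive log2 fold changes and the median was -1.05, against -0.01 over all genes, and in 10 the groups did not overlap, as in 30.4% of all genes. Nkg7 had 368 and 165 in GAL, against 1124 and 657 in WT (normalized CPM), Klrd1 had 79.6 and 36.6 in GAL, against 160.5 and 174 in WT, and Gzma had 368 and 9.15 in GAL, against 2253 and 444 in WT. In GAL replicate 1, 90.5% of Gzma UMIs lay in 1 cell. The NK-type receptor gene Klre1 had 19.9 and 9.15 in GAL, against 304 and 89.8 in WT. The NK cell marker list summed to 773 and 282 CPM of all UMIs in GAL, against 3042 and 1138 CPM in WT, with Ncr1 at 0 by the rule.

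Within type 1 cells alone, Ccl5 had 3508 and 5594 CPM in GAL, against 12940 and 7349 CPM in WT, and Gzma had 592 and 0 CPM in GAL, against 3258 and 543 CPM in WT; these are CPM of all UMIs of those cells, given with no test. Ccl5 is one of the genes that define type 1 cells here, and GAL replicate 2 had 7 such cells, so its values are a description only. All 20 tested genes of the type 17 programme had positive log2 fold changes (median 0.51), none called, and in 8 the groups did not overlap, as in 30.4% of all genes. Il1r1 had 94.5 and 101 in GAL, against 40.1 and 33.7 in WT (normalized CPM), Blk had 174 and 201 in GAL, against 120.4 and 78.6 in WT, Cd163l1 had 274 and 412 in GAL, against 252 and 225 in WT, and Il17a had 383 and 229 in GAL, against 275 and 84.2 in WT. The groups overlapped for Il17a and not for the other 3. Trac had 49.8 and 91.5 in GAL, against 120.4 and 146 in WT (log2 fold change -1.0 ± 0.43 (SE), adjusted p = 0.996), and Tcrg-C1 had 438 and 256 in GAL, against 212 and 309 in WT (log2 fold change 0.44 ± 0.36 (SE), adjusted p = 0.996).

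Of the genes with positive differences, Jun, mt-Nd3, Hspa1b and Hspa1a had the smallest unadjusted p, and none of them passed the test. The immediate early transcription factor gene Jun had 1617 and 1116 normalized CPM in the GAL libraries, against 487 and 522 in the WT libraries (log2 fold change 1.44 ± 0.29 (SE), adjusted p = 0.297). Within type 17 cells Jun had 1606 and 1381 CPM in GAL, against 893 and 727 CPM in WT. Within type 1 cells it had 1122 and 787 CPM in GAL, against 300 and 113 CPM in WT. The groups did not overlap in either type, as was so for 30.4% of all genes in the sums of all gamma-delta cells. The share within each type was not computed. These values are given with no test, and GAL replicate 2 had 7 type 1 cells. The heat shock protein 70 genes Hspa1b and Hspa1a had 219 and 1271 in GAL, against 138 and 61.8 in WT (Hspa1b), and 428 and 778 in GAL, against 212 and 264 in WT (Hspa1a). All 11 tested heat shock genes had positive log2 fold changes (median 0.70), and the groups did not overlap in 9 of them, against 30.4% of all genes. Of 20 immediate early genes 15 had positive log2 fold changes (median 0.35), and the groups did not overlap in 11, with the same 30.4% over all genes. The mitochondrial complex I transcript mt-Nd3 had 194 and 210.4 in GAL, against 74.5 and 39.3 in WT, and 10 of 12 mitochondrial DNA transcripts were positive (median 0.37). The median mitochondrial share of UMIs in gamma-delta cells was 2.13% and 2.15% in GAL, against 1.74% and 1.73% in WT.

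**Figure D5:**
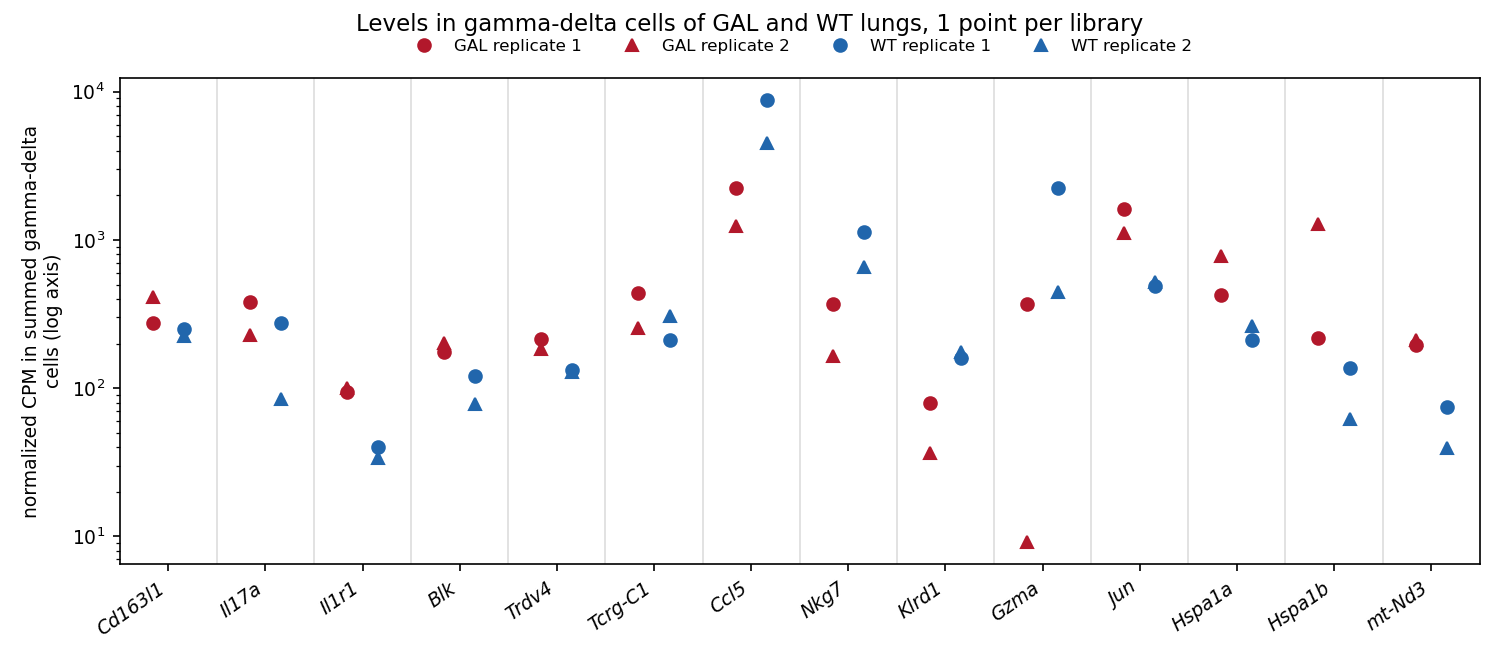
Normalized CPM (log scale) of named genes in the summed gamma-delta cells of each library; GAL libraries (red) stand left of WT libraries (blue). Both GAL values lay below both WT values for Ccl5 and Nkg7 and above them for Jun, Hspa1b and mt-Nd3, and 0 of 3162 genes were called.

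Other genes of smallest unadjusted p included RNA of other cell types. The neutrophil gene S100a8 had 44.8 and 174 in GAL, against 1227 and 292 in WT (normalized CPM), and 61.2% and 80.8% of its WT UMIs lay in 1 cell per library. Cxcl1 had 49.8 and 73.2 in GAL, against 195 and 303 in WT, with 92.6% of the UMIs of WT replicate 2 in 1 cell. The neutrophil marker list summed to 55.9 and 314 CPM of all UMIs in GAL, against 2058 and 433 CPM in WT. Levels in gamma-delta and CD4 T cells did not overlap for 6.24% of 7874 genes, a share that concerns the cell types and not the GAL effect. Tests of whether the GAL effect differed between these cell types called 3 of the 7874 genes (0.0381%), 1 higher (0.0127%) and 2 lower (0.0254%) in gamma-delta cells. They were S100a8 (log2 fold change -4.82 ± 0.40 (SE), adjusted p = 6.14e-05), S100a9 (log2 fold change -4.38 ± 0.69 (SE), adjusted p = 0.0444) and Ccl6 (log2 fold change 2.00 ± 0.29 (SE), adjusted p = 0.0295), all genes of neutrophils or macrophages (edgeR's quasi-likelihood test, Benjamini-Hochberg adjustment). DESeq2 called S100a8 and S100a9 and not Ccl6, and edgeR's count was 18 to 51 genes, these 3 among them, with 1 library left out. Genes not called in it may still differ. For Ccl5 the difference between the GAL effects was -2.66 ± 0.48 (adjusted p = 0.0930), and for Jun 1.52 ± 0.27 (adjusted p = 0.0930).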

How the data were processed

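Lung cells were profiled with a droplet kit (SeekOne) in 2 GAL and 2 WT libraries. Per the submitters' processing notes the tools were fastp, STAR and Seurat on GRCm38 (mm10), with no versions; no source used here names the annotation for counting. The authors deposited raw counts of UMIs per gene and barcode for 32285 genes, and the lowest barcode held 500 UMIs. Gamma-delta, CD4 T, CD8 T and NK cells were found by UMIs of the genes named above: CD4 and CD8 T cells needed their own coreceptor gene (Cd4; Cd8a or Cd8b1) and at least 2 CD3 genes with 0 UMIs of the other coreceptor, Trdc, Ncr1 and Cd79a, and NK cells needed Ncr1 with 0 UMIs of CD3 genes and Cd79a. No clustering was used, and doublets, marked by Scrublet at an expected 0.8% per 1000 cells, were left in (marked members 8 and 1 in GAL, 10 and 13 in WT). Counts were summed per library and type and tested by edgeR 4.0.16 (quasi-likelihood, filterByExpr, TMM, Benjamini-Hochberg, called under 0.05). DESeq2 1.42.0 was an alternative. Comparisons between cell types of the same libraries carried a library term, since each library holds both. Normalized CPM use TMM-scaled library sizes, so levels differ in scale between comparisons. The fits were tested on simulated counts in which 200 genes had a log2 fold change of 2. Of these, 75% were called in GAL against WT, and 84%, 88% and 99.5% against CD4 T, CD8 T and NK cells. Between type 17 and type 1 cells 85% were called. The test of whether the GAL effect differs between cell types called 27%, so it missed most changes of this size. Named genes were Galt, the 4 markers of the label, receptor segments with at least 10 UMIs, list members of smallest p or of defining role, and, for GAL against WT, up to 10 genes per direction of smallest p with at least 50 CPM. The members, the 19 gene lists and 11 marker lists were chosen with earlier results of these data known. Gene positions are from GENCODE vM21, promoters from RefSeq. Some listed genes are not reported here.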

Additional observations from a re-analysis of the deposited data

Results flagged for a closer look

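The GAL effect differed between gamma-delta and CD4 T cells for 3 genes, by a test of the difference itself in edgeR's quasi-likelihood fit (both cell types share their libraries); DESeq2 called S100a8 and S100a9 and not Ccl6. For S100a8 the GAL effect in gamma-delta cells minus that in CD4 T cells was -4.82 on the log2 scale, with 39.2 and 148 normalized CPM in GAL gamma-delta cells, against 1051 and 256 in WT gamma-delta cells, and 190 and 1026 in GAL CD4 T cells, against 164 and 82.1 in WT CD4 T cells. For S100a9 it was -4.38, with 13.1 and 148 normalized CPM in GAL gamma-delta cells, against 849.7 and 113 in WT gamma-delta cells, and 133 and 806 in GAL CD4 T cells, against 122 and 104 in WT CD4 T cells. For Ccl6 it was 2.00, with 362 and 703 normalized CPM in GAL gamma-delta cells, against 467 and 261 in WT gamma-delta cells, and 122 and 192 in GAL CD4 T cells, against 522 and 344 in WT CD4 T cells. S100a8 and S100a9 are neutrophil genes and Ccl6 is a gene of macrophages and other myeloid cells. The cell that held most S100a8 had 22.2% and 26.3% of its gamma-delta UMIs in the GAL libraries and 61.2% and 80.8% in the WT libraries, and for Ccl6 84.3% and 91.1% of its gamma-delta UMIs in the GAL libraries and 43.2% and 64.2% in the WT libraries. The part of stray myeloid RNA in these differences was not tested.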

How the results depend on the processing

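Shares of gamma-delta cells changed the sign of their difference between GAL and WT under several settings. Among kept cells the difference was 0.0169 percentage points with at least 2 Trdc UMIs, 0.00184 with doublets removed and 0.0304 of cells with Ptprc, and leaving out 1 library gave -0.0936 to 0.0315. Among cells with at least 2 CD3 genes it was 0.184 with at least 2 Trdc UMIs, and leaving out 1 library gave -0.785 to 0.518. The type 17 and type 1 shares kept their direction under every alternative run. The type 17 shares of GAL and WT overlapped when 1 gene sufficed and when cells with RNA of other cell types were left out. Leaving out 1 library gave type 17 differences of 12.3 (without GAL replicate 2) to 28.3 percentage points. The type 1 differences were then -34.9 to -14.2 (without GAL replicate 2). The count of genes called between GAL and WT was 1 in DESeq2 and 3 without members holding Trbc1 or Trbc2. That setting left out 51 of 53 and 30 of 37 GAL members. In it Cxcl2 and Lyz2 were higher in GAL (log2 fold changes 5.01 and 5.36) and Ccl5 was lower (-5.71). Cxcl2 had the opposite sign in the main fit (-0.96), where Lyz2 was at 0.14. Against CD4 T cells the count of called genes was 435 with no filter on low counts and 28 without members holding Trbc1 or Trbc2. It was 76 with no replicate block (no library term) and 103 to 234 with a library left out. Against CD8 T cells a library left out gave 241 to 473, and no replicate block gave 301. Against NK cells it was 281 in DESeq2, 717 with no filter and 281 to 499 with a library left out, and 326 with no replicate block. Between type 17 and type 1 cells it was 243 with no filter, 0 to 179 with a library left out and 95 with no replicate block. For the difference of GAL effects it was 32 with no filter and 18 to 51 with a library left out. Among named genes, leaving out a library reversed the log2 fold change of Tcrg-C1 in GAL against WT (-0.021 without GAL replicate 1, 0.762 at most), Trbc1 against CD4 T cells (0.066 without GAL replicate 1, -0.39 at the other end), Ccl5 against CD8 T cells (0.156 without GAL replicate 2, -0.964 at the other end) and Itgae against CD8 T cells (0.26 without WT replicate 1, -0.488 at the other end). The causes were not tested. No paired analysis was possible because the labels carry no replicate numbers that pair GAL with WT libraries. Depth limits all of this: with 37 to 61 members per library, 3162 of 32285 genes had enough UMIs to be tested between GAL and WT.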

Other observations

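Among the remaining genes of smallest unadjusted p between GAL and WT, none called, gamma-delta cells of both GAL libraries were above both WT libraries in Dnajb1, a heat shock cochaperone (209 and 302 in GAL, against 80.3 and 124 in WT, normalized CPM), in the scavenger receptor gene Cd36 (114 and 156 in GAL, against 45.9 and 56.1 in WT), in Sema3c (69.7 and 109.8 in GAL, against 22.9 and 0 in WT), in the phosphodiesterase gene Smpdl3a (169 and 146 in GAL, against 40.1 and 84.2 in WT), in Mrps5 (99.5 and 119 in GAL, against 28.7 and 33.7 in WT) and in the kinase gene Aak1 (109.5 and 174 in GAL, against 63.1 and 39.3 in WT). They were below both WT libraries in the long RNA AW112010 (264 and 219.5 in GAL, against 831 and 432 in WT), in Slpi (34.8 and 109.8 in GAL, against 447 and 129 in WT), in the inflammasome gene Nlrp3 (24.9 and 36.6 in GAL, against 97.5 and 112 in WT), in the myeloid receptor gene Clec4d (14.9 and 18.3 in GAL, against 97.5 and 84.2 in WT) and in Tppp3 (24.9 and 27.4 in GAL, against 201 and 89.8 in WT). Such a separation was found in 30.4% of all genes tested.

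Galactose handling genes were mostly too low to test in gamma-delta cells: 4 of 17 listed genes passed the filter, none was called, and the median log2 fold change between GAL and WT was -0.11. Of these, Lgals3 (galectin 3) had 269 and 274 in GAL, against 527 and 376 in WT normalized CPM. Other lists had medians between GAL and WT of -0.14 (naive and circulating, 10 genes), -0.26 (cell division, 11 genes), 0.23 (interferon-stimulated, 7 genes), 0.04 (receptor signalling, 19 genes), -0.30 (chemokine and adhesion receptors, 14 genes), 0.17 (cytokine receptors, 12 genes), 0.14 (cytokines and growth factors, 5 genes), 0.03 (checkpoint and costimulation, 9 genes), -0.12 (tissue residency, 9 genes), -0.17 (glucocorticoid response, 10 genes), -0.58 (sterol synthesis, 3 genes), 0.32 (gamma and delta chain segments, 5 genes) and -0.05 (alpha and beta chain constants, 3 genes). None of their genes was called.

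Amphiregulin RNA was found in 14 of the 37 cells with Il17a.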
